A study of Mus musculus with 20 samples.

Results

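Matricellular proteins are secreted into the extracellular matrix but serve less as structural fibres than as regulators, binding cell surface receptors, growth factors, proteases and collagens. They include the SPARC family, the thrombospondins, the tenascins, periostin and osteopontin, which signal largely through integrins, CD36, CD47 and the scavenger receptor Stab1. In skin they are best known from dermal fibroblasts, from wounds and from the surroundings of the hair follicle. Transcripts of 8 of these genes were followed here in sorted mouse epidermal cells: Sparc, Sparcl1, Thbs1, Thbs2, Thbs3, Tnc, Postn and Spp1, each found by its gene name in a table of 53380 genes. All 8 passed the filter on low values, which asked for 10 normalized counts or more in 3 or more of the 20 libraries and left 17204 genes. Sparcl1 would not have passed without the libraries of dendritic epidermal T cells. The genes were proposed after the difference between Thy1hi and Thy1- keratinocytes was known, with Sparc and Thbs2 high in it, so values for that pair of populations are given as a description, with no test. Tests of Sparc and Thbs2 that use Thy1hi or Thy1- libraries reuse the libraries of that choice, and are no independent support for a difference.

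The data were bulk RNA-seq of 5 populations sorted from the dorsal epidermis, to ask whether keratinocytes carrying the surface protein Thy1 differ from other epidermal cells. Hair follicle stem cells (HFSC, integrin-α6 and CD34 positive, Sca1 negative) had 4 libraries. Thy1hi and Thy1- basal keratinocytes (both integrin-α6 and Sca1 positive) had 4 libraries each, and dendritic epidermal T cells (DETC, Thy1 positive, Sca1 negative or low) had 5. Lineage-labelled Thy1hi keratinocytes (YFP+) had 3 libraries, from Thy1-CreERT2;R26-EYFP mice, in which tamoxifen lets a Cre recombinase driven by Thy1 regulatory sequence switch on a yellow fluorescent protein, so that cells are marked by having used that sequence. The other populations are described as coming from wild-type C57BL/6J mice in the methods, whereas the sample labels give the genotype Thy1.2CreERT2-Rosa26-EYFP and no treatment for every sample. The design text states 8 weeks of age and the labels state ages from 8 to 27 weeks, 1 per sample. YFP+ samples are labelled Sca1 negative in one field and Sca1 positive in another. The study gives pooled mice in one place and single mice in another, so the number of mice behind each library is unclear, and the spread between libraries may be technical. The libraries come from batches that are not given per sample, so no batch term entered the fit. The part of batch in the differences was not tested.

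Reads on genes ranged from 7781256 to 12982393 per library. Thy1 was high in Thy1hi (511 to 775 normalized counts) and YFP+ libraries (468 to 1546) and low in Thy1- libraries (63.1 to 77.8), and Cd34 was highest in HFSC libraries (1599.8 to 2622, and at most 130.1 elsewhere). The summed level of 6 T cell markers was 14772 to 32331 in DETC libraries and at most 381 in the others. Basal keratinocyte markers (Krt5, Krt14, Itga6, Itgb4 and Col17a1) were nevertheless present in DETC libraries, at a sum of 9972 in replicate a and 33571 to 46131 in the rest, beside 75406 to 257322 in Thy1-, Thy1hi and YFP+ libraries. HFSC replicate 4 stood apart from the other HFSC libraries, with Langerhans cell and macrophage markers at 33.6 against 1688 to 3554 and basal keratinocyte markers at 48623 against 104683 to 114606. Fibroblast markers (Col1a1, Col1a2, Col3a1, Pdgfra, Dcn, Lum and Dpt) varied most among Thy1hi libraries, from 186 in replicate 3 to 1946 in replicate 1.

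**Figure D1:**
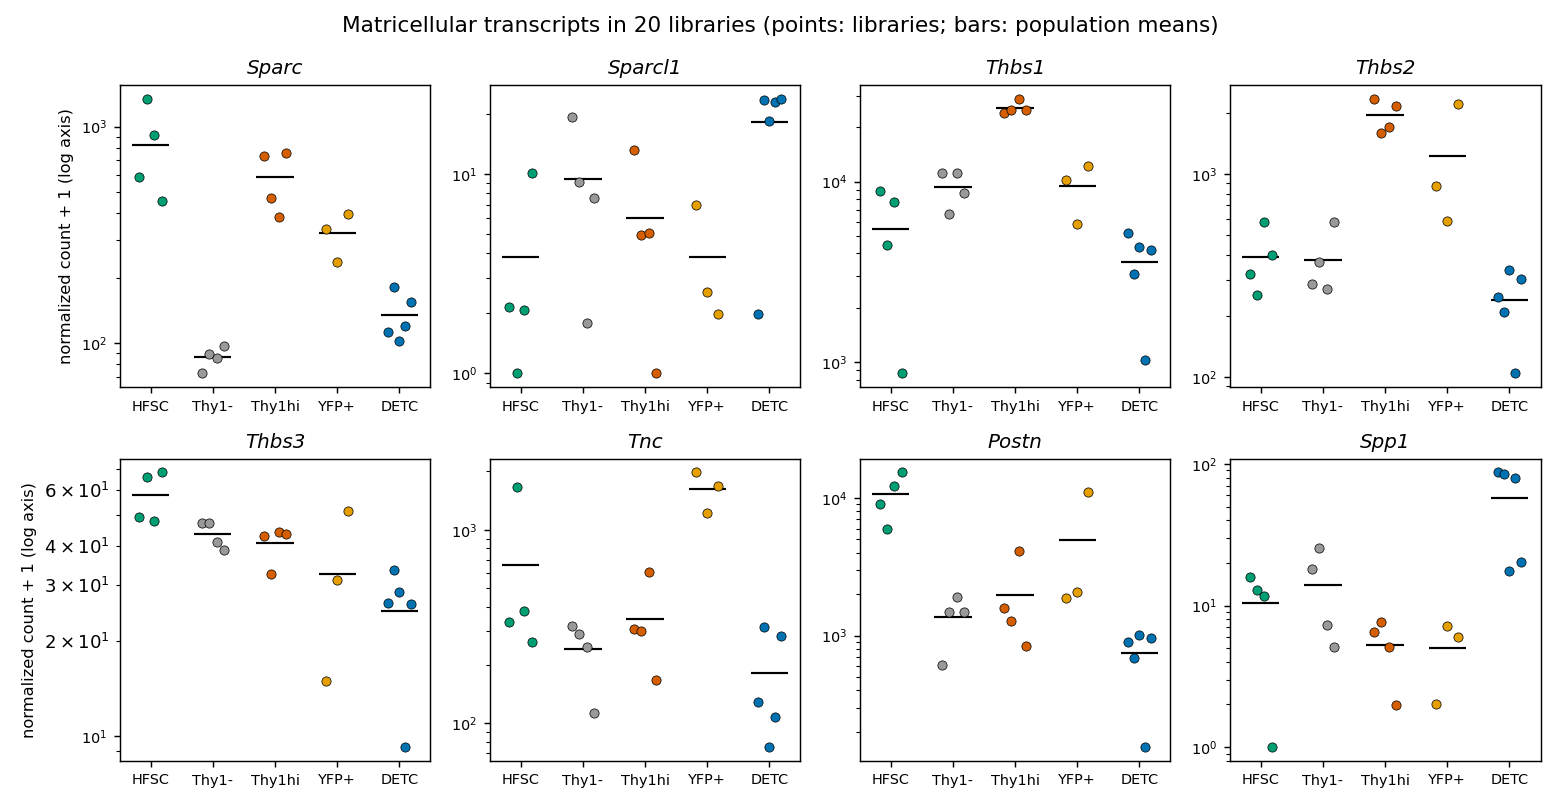
Normalized count + 1 on a log axis of each of the 8 genes (panels) in the 20 libraries (points), grouped by population, with the mean of each population as a bar. Thbs1 and Thbs2 have their highest mean in Thy1hi libraries (values of 24099 to 28818 and 1600.4 to 2351), Postn in HFSC libraries (5962 to 15338) and Spp1 in DETC libraries (16.6 to 86.1).

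Per kilobase of exon, Thbs1, encoding thrombospondin-1, was the most abundant of the 8 transcripts in every Thy1hi, Thy1-, YFP+ and DETC library. It held 83.8% to 88.3% of the sum over the 8 genes, each per kilobase, in Thy1hi libraries, 77.7% to 90.3% in Thy1- libraries, 51.3% to 71.1% in YFP+ libraries and 55.9% to 78.0% in DETC libraries. HFSC libraries were divided between Thbs1 and Postn, which encodes periostin: Thbs1 led in replicates 1 and 2 and Postn in replicates 3 and 4. Postn held 33.5% to 82.7% of the sum in HFSC libraries and 2.04% to 8.41% in Thy1hi libraries. Tnc, encoding the hexameric glycoprotein tenascin-C, held 5.50% to 10.7% in YFP+ libraries and 0.454% to 1.37% in Thy1hi libraries. Spp1, encoding osteopontin, held 1.08% to 15.6% in DETC libraries, the highest share in replicate a, where the 8 transcripts had their lowest sum (304 per kilobase). Thbs3 and Sparcl1 held under 1% in every library but DETC replicate a, where Sparcl1 held 2.46%.

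**Figure D2:**
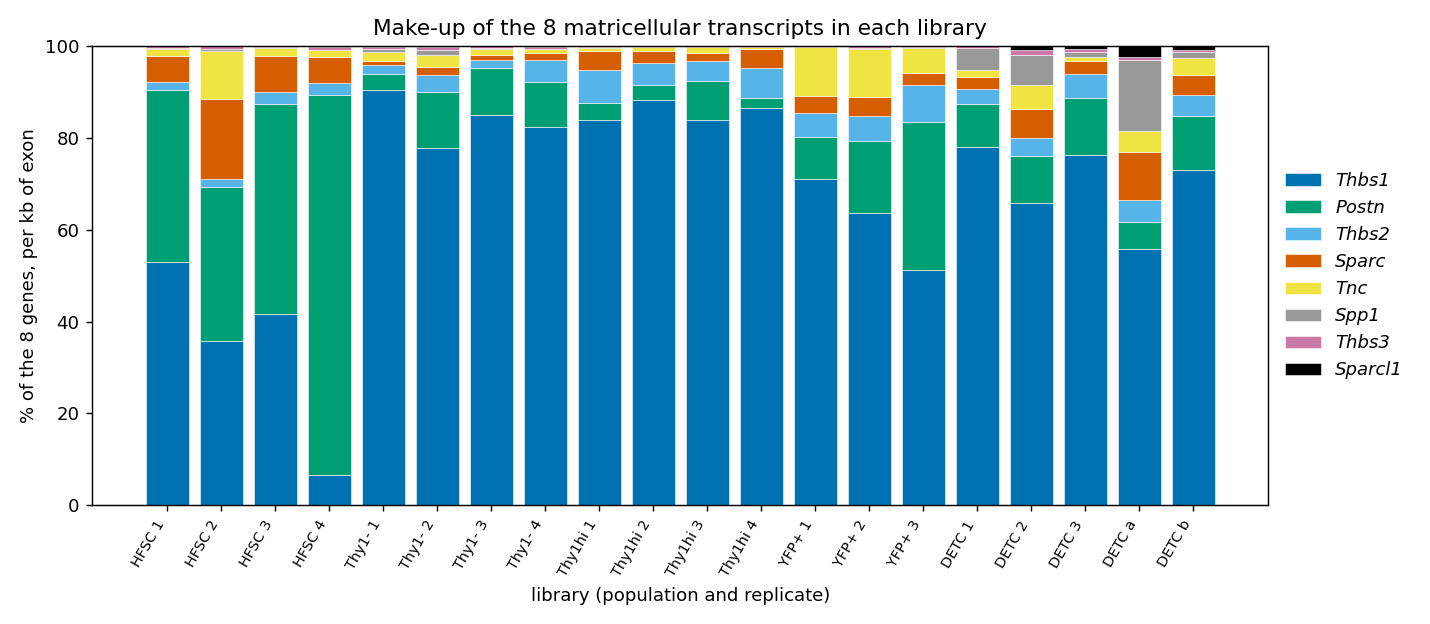
Percentage that each of the 8 transcripts holds of their sum, each per kilobase of exon, in the 20 libraries (stacked bars; libraries by population and replicate). Thbs1 takes at least 51.3% of each bar outside the HFSC libraries, where it takes 6.68% to 52.9% beside a large share of Postn.

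In Thy1hi against Thy1- libraries, 3 of the 8 genes were higher without overlap (Sparc, Thbs2 and Thbs1) and 0 were lower without overlap. Over all genes tested 3.59% were higher and 3.17% lower without overlap, and nothing is read from the count, since the genes were proposed from this pair. Against HFSC libraries, 3 of the 8 changed in Thy1hi cells (Thbs1 and Thbs2 up, Postn down; 13.4% of all genes tested passed in either direction) and 2 in Thy1- cells (Sparc and Postn, both down; 6.08%). In YFP+ cells, 2 changed against HFSC (Thbs2 up and Sparc down; 11.6%), 2 against Thy1- cells (Sparc and Tnc, both up; 0.761%) and 0 against Thy1hi cells. In YFP+ against Thy1hi, 2 of all genes tested passed with limma (0.0116%), 2 with edgeR and 113 with DESeq2. Of the 8 genes, DESeq2 called Tnc there and edgeR 0. In DETCs, 4 changed against Thy1hi cells (Spp1 up, Sparc, Thbs1 and Thbs2 down; 36.6%) and 6 against HFSC (Spp1 and Sparcl1 up, Sparc, Postn, Tnc and Thbs3 down; 39.7%). Sparcl1 is counted among these 6 but passed the filter only with the DETC libraries, so nothing is read from its call. A gene is said to have changed where its adjusted p was under 0.05 in a limma fit of log2(normalized count + 1) over all libraries, and differences below are on that scale, with the standard error of the fit. Comparisons that name the same population share its libraries and are not independent of each other. As these are bulk samples, fewer cells of a type and less RNA per cell cannot be told apart.

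**Figure D3:**
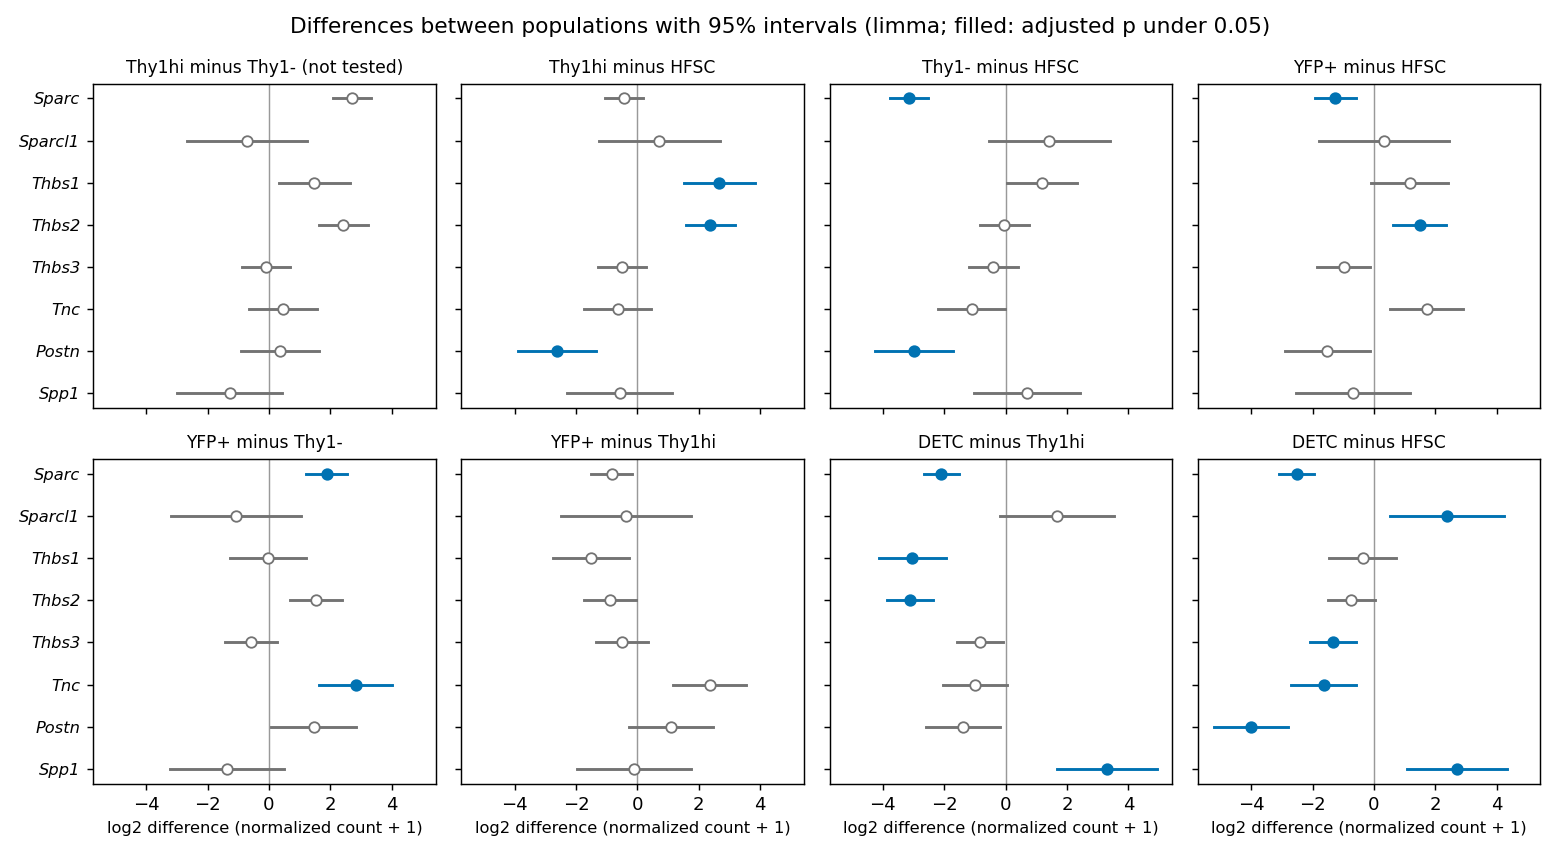
Log2 difference of each of the 8 genes in 8 comparisons (panels), with the 95% interval of the limma fit as a line; filled points passed the adjusted threshold, and the Thy1hi against Thy1- panel was not tested. Thbs1 and Thbs2 sit to the right and Postn to the left in Thy1hi against HFSC (2.67, 2.38 and -2.62).

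Among the thrombospondins, Thbs1 and Thbs2 were highest in Thy1hi keratinocytes and Thbs3 was not. Thbs1 and Thbs2 encode the trimeric thrombospondins, which bind CD36, CD47 and integrins and are known inhibitors of blood vessel growth; thrombospondin-1 also activates latent TGF-β. Thy1hi libraries held 24099, 25086, 28818 and 24841 normalized counts of Thbs1 (ENSMUSG00000040152, mm10 chromosome 2, 118111876 to 118127133, plus strand) in replicates 1 to 4. Thy1- libraries held 11202, 6587, 11117 and 8658. The lowest Thy1hi library lay above every library of the other 4 populations. The difference between Thy1hi and Thy1- was 1.48 ± 0.55 (SE), and the ratio within the 4 same-numbered pairs was 2.15 to 3.81. HFSC libraries held 8843, 4444, 7743 and 865 normalized counts of Thbs1, with replicate 4 far below the rest. Thbs1 rose in Thy1hi against HFSC by 2.67 ± 0.55 (adjusted p 0.00265; exact permutation p 0.0286, the smallest that 4 against 4 libraries allow). Without HFSC replicate 4 the difference was 1.93 (adjusted p 0.00408; range 7.23e-05 to 0.0247 over the 20 alternatives). Thy1- libraries overlapped HFSC libraries, with a difference of 1.19 (95% interval 0.03 to 2.34, adjusted p 0.197).

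YFP+ libraries held 10250.2, 5853 and 12230.2 normalized counts of Thbs1, which overlap the Thy1- libraries. They lay below all Thy1hi libraries, by a difference of -1.51 that did not pass the test (95% interval -2.75 to -0.26, adjusted p 0.460), and they differed from Thy1- libraries by -0.03 (95% interval -1.27 to 1.22, adjusted p 0.993). Of all genes tested, 10.5% had YFP+ libraries apart from Thy1hi libraries in either direction. DETC libraries held 5216, 3063, 4332, 1032 and 4191, with replicate a lowest for Thbs1 as it was for basal keratinocyte markers. Thbs1 fell in DETC against Thy1hi (log2 difference -3.04, SE 0.53, adjusted p 0.000108). Against HFSC the DETC difference was -0.36 (adjusted p 0.608). It was called without HFSC replicate 4 (-1.10, adjusted p 0.0311; range 0.000588 to 0.989 over 22 alternatives). A fit of the 2 populations with the replicate number as a block, added after the data were seen, left out DETC a and b. That fit called the difference at -0.71 (adjusted p 0.000588). Without DETC replicate a or HFSC replicate 1 the difference turned to 0.03 and 0.01. The part of keratinocyte RNA in the DETC values was not tested.

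Thy1hi libraries held 2351, 1600.4, 1706 and 2157 normalized counts of Thbs2 (ENSMUSG00000023885, chromosome 17, 14665500 to 14694262, minus strand). Thy1- libraries held 286, 369, 271 and 582, and HFSC libraries 321, 251, 578 and 399. Both sets lay below the lowest Thy1hi library and overlapped each other. Thbs2 was higher in Thy1hi than in Thy1- by 2.42 ± 0.38, with ratios of 3.71 to 8.23 within pairs. It rose in Thy1hi against HFSC by 2.38 ± 0.38 (adjusted p 0.000234, exact p 0.0286), whereas the Thy1- difference from HFSC was -0.04 (95% interval -0.84 to 0.76, adjusted p 0.963). As Thbs2 was proposed with these Thy1hi libraries in view, the call is no independent support for a rise. YFP+ libraries held 875, 585 and 2204, of which replicate 3 lay within the Thy1hi range and the other two below it. Thbs2 rose in YFP+ against HFSC by 1.49 ± 0.41 (adjusted p 0.0216; exact p 0.0571, the smallest that 3 against 4 libraries allow), a call that 16 of 19 alternatives kept. It was lost without YFP+ replicate 3 (0.95, adjusted p 0.198), without HFSC replicate 2 (1.31, adjusted p 0.0599) and with only those 2 populations in the fit (adjusted p 0.0986; range 0.00147 to 0.198 over all 19). Against Thy1- cells the YFP+ libraries lay apart, by 1.53 ± 0.41, without passing the test (adjusted p 0.0821; called without YFP+ replicate 2, adjusted p 0.0300, range 0.00585 to 0.481 over 19 alternatives). DETC libraries held 246, 208, 336, 103 and 304, below every Thy1hi library (log2 difference -3.11, adjusted p 8.68e-07). The DETC difference from HFSC was -0.73 (adjusted p 0.117), and was called in the block fit of those 2 populations (-0.48, adjusted p 0.0231; range 0.0231 to 0.397 over 22 alternatives).

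Thbs3, a pentameric thrombospondin gene (ENSMUSG00000028047, chromosome 3, 89215180 to 89226837, plus strand), had low values that ran from 8.23 to 67.3 over the 20 libraries. Thy1hi libraries held 42.0, 31.6, 43.1 and 42.7 normalized counts and Thy1- libraries 46.2, 46.3, 40.2 and 37.7, which overlap. HFSC libraries held 48.5, 65.2, 47.0 and 67.3, each above every Thy1hi and Thy1- library. The differences of Thy1hi (-0.50, adjusted p 0.409) and Thy1- cells (-0.40, adjusted p 0.532) from HFSC did not pass the test, although the exact p was 0.0286 for both. Thbs3 fell in DETC against HFSC (log2 difference -1.33, SE 0.36, adjusted p 0.00584), with DETC libraries at 8.23 to 32.5. YFP+ libraries held 14.0, 30.2 and 50.5 and overlapped the 4 other populations.

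Sparc, encoding a secreted protein that binds collagen and calcium, was at a similar level in HFSC and Thy1hi libraries and low in Thy1- and DETC libraries. Thy1hi libraries held 732, 466, 381 and 752 normalized counts of Sparc (ENSMUSG00000018593, chromosome 11, 55394500 to 55423183, minus strand). Thy1- libraries held 71.75, 87.9, 84.4 and 96.7, a narrow range below every other library of the series. The difference between Thy1hi and Thy1- was 2.71 ± 0.30, with ratios of 4.52 to 10.2 within the 4 pairs. HFSC libraries held 585, 1345, 909.8 and 452 and overlapped the Thy1hi libraries, with a difference of -0.43 (95% interval -1.05 to 0.18, adjusted p 0.354). Sparc fell in Thy1- against HFSC (log2 difference -3.14, SE 0.30, adjusted p 1.63e-06, exact p 0.0286), a call that held in all 20 alternatives. As Sparc was proposed with these Thy1- libraries in view, the call is no independent support for a fall.

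YFP+ libraries held 335, 237 and 392 normalized counts of Sparc, between Thy1- and HFSC libraries and overlapping the Thy1hi range. Sparc rose in YFP+ against Thy1- by 1.88 ± 0.32 (adjusted p 0.00771, exact p 0.0571), a call lost without YFP+ replicate 1 (1.84, adjusted p 0.0523) and without YFP+ replicate 3 (1.72, adjusted p 0.0910), with a range of 2.05e-05 to 0.0910 over 19 alternatives. It fell in YFP+ against HFSC (log2 difference -1.26, adjusted p 0.0126), a call lost without YFP+ replicate 2 (-1.06, adjusted p 0.0642) and with only those 2 populations in the fit (adjusted p 0.0909; range 0.00113 to 0.0909 over 19 alternatives). Against Thy1hi libraries the YFP+ difference was -0.83 (95% interval -1.49 to -0.16, adjusted p 0.437). DETC libraries held 112, 182, 101.2, 119 and 155, above Thy1- libraries without overlap, and below HFSC (-2.52 ± 0.28, adjusted p 4.43e-07) and Thy1hi libraries (-2.09 ± 0.28, adjusted p 5.26e-06).

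Dermal fibroblasts are a known source of Sparc, so their markers are given beside it. Their sum was 1946, 985, 186 and 408 in Thy1hi replicates 1 to 4, and 221, 216, 136 and 123 in Thy1- replicates 1 to 4. Thy1hi replicate 3, the lowest Thy1hi library for both, lay within the Thy1- range for these markers. It held 381 counts of Sparc, above the highest Thy1- library at 96.7. YFP+ libraries had marker sums of 71.8, 219 and 44.6, of which replicate 2 lay within the Thy1- range and the other two below it, with Lum and Dpt at no more than 3 reads in each library. Replicate 3, with the lowest sum, held the most Sparc of the 3. DETC libraries had sums of 357 to 1306 and Sparc at 101.2 to 182, with replicate 2 highest for both. HFSC libraries had sums of 344, 770, 360 and 225 in replicates 1 to 4. Their Sparc values (585, 1345, 909.8 and 452) ran in the same order. The part of fibroblast RNA in the Sparc values was not tested. Without Thy1hi replicate 1 the Thy1hi against Thy1- difference in Sparc was 2.58.

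**Figure D4:**
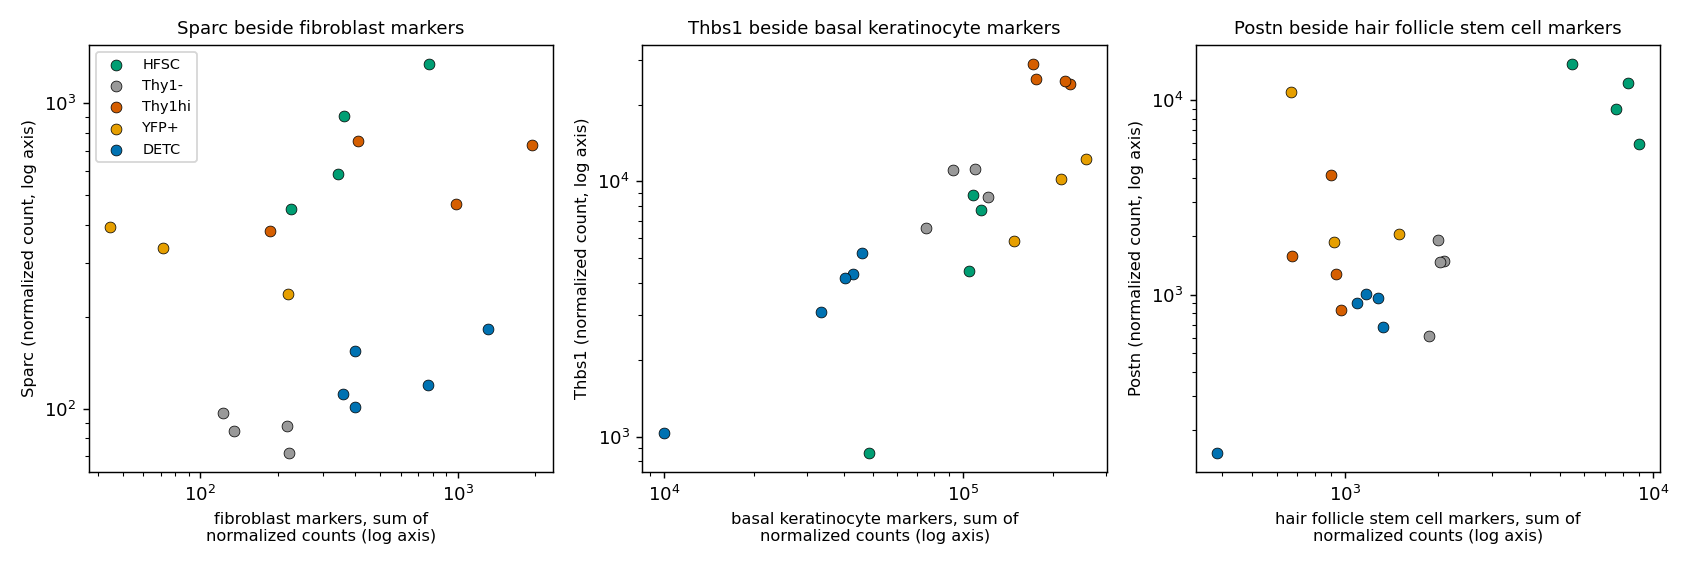
Normalized count of Sparc, Thbs1 and Postn against the summed normalized counts of fibroblast, basal keratinocyte and hair follicle stem cell markers, all on log axes, with a point for each of the 20 libraries coloured by population. YFP+ libraries hold more Sparc (237 to 392) than Thy1- libraries (71.75 to 96.7) at fibroblast sums of 44.6 to 219 beside 123 to 221, and DETC replicate a is lowest for basal keratinocyte markers (9972). HFSC libraries hold 452 to 1345 counts of Sparc at fibroblast sums of 225 to 770, in the same order.

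Sparcl1, encoding the SPARC relative hevin (ENSMUSG00000029309, chromosome 5, 104079111 to 104113733, minus strand), was near the limit of detection. It had at most 3 reads in 3 of 4 HFSC libraries, 2 of 4 Thy1hi, 2 of 3 YFP+, 1 of 4 Thy1- and 1 of 5 DETC libraries. DETC libraries held 0.98, 22.4, 17.4, 21.95 and 22.8 normalized counts, 4 of them above every HFSC library (0 to 9.11). Sparcl1 rose in DETC against HFSC by 2.39 ± 0.89 (adjusted p 0.0383, exact p 0.0635), but the call held in 8 of 21 alternatives and was lost without any 1 of DETC 2, 3, a or b or HFSC 1, 2 or 3 (adjusted p 0.0680 to 0.121; range 0.00552 to 0.252 over all 21). Thy1hi libraries held 0 to 12.1 normalized counts and overlapped Thy1- libraries (0.79 to 18.2). Sparcl1 passed the filter only with the DETC libraries, where it was high, so its call in DETCs is no independent support for a rise. With no filter the limma adjusted p of DETC against HFSC was 0.0853.

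Tnc, which is low in resting skin and known to be induced in wounds, was highest in YFP+ libraries. These held 1977, 1219.9 and 1679 normalized counts of Tnc (ENSMUSG00000028364, chromosome 4, 63959785 to 64047015, minus strand). Thy1hi libraries held 306, 299, 603 and 167, and Thy1- libraries 319, 287, 248 and 111. The Thy1hi and Thy1- libraries overlapped (0.46 ± 0.53) and both lay below the lowest YFP+ library. Tnc rose in YFP+ against Thy1- by 2.82 ± 0.57 (adjusted p 0.0242, exact p 0.0571). The call was lost without YFP+ replicate 1 (2.67, adjusted p 0.140), YFP+ replicate 3 (2.79, adjusted p 0.155), Thy1- replicate 3 (2.87, adjusted p 0.0722) or Thy1- replicate 4 (2.49, adjusted p 0.0567), with differences of 2.49 to 3.02 and adjusted p of 0.000455 to 0.155 over 19 alternatives. Against Thy1hi libraries the YFP+ difference was 2.36 ± 0.57 (95% interval 1.17 to 3.55, adjusted p 0.168), and DESeq2 called it (2.24, adjusted p 0.0228; range 0.0228 to 0.617 over 19 alternatives). HFSC libraries held 331, 1659.5, 381 and 263, with replicate 2 inside the YFP+ range. The YFP+ difference from HFSC was 1.72 ± 0.57 (adjusted p 0.0564), and was called without HFSC replicate 2 (2.31, adjusted p 0.00529; range 0.00529 to 0.177 over 19 alternatives). DETC libraries held 127, 312, 74.3, 107 and 279.8, and Tnc fell against HFSC (log2 difference -1.64, adjusted p 0.0132), a call lost without HFSC replicate 2 (-1.05, adjusted p 0.0711; range 6.86e-05 to 0.0711 over 22 alternatives). YFP+ libraries come from another mouse line than the study gives for the rest and, unlike them, from induced mice, so lineage labelling and these conditions cannot be told apart.

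Postn was higher in HFSC than in Thy1hi and Thy1- keratinocytes. Periostin is a fasciclin-domain protein that binds collagen, tenascin-C and integrins. HFSC libraries held 8995.5, 5962, 12204 and 15338 normalized counts of Postn (ENSMUSG00000027750, chromosome 3, 54361109 to 54391037, plus strand). Thy1hi libraries held 1573, 1279, 4141 and 837, and Thy1- libraries 615, 1494, 1906 and 1471. Both lay below every HFSC library and overlapped each other (0.36 ± 0.61). Postn fell against HFSC in Thy1hi cells (log2 difference -2.62, SE 0.61, adjusted p 0.00645) and in Thy1- cells (-2.98, SE 0.61, adjusted p 0.00552), each with an exact p of 0.0286 and a call in all 20 alternatives. YFP+ libraries held 1863, 2057 and 11026, so that replicate 3 lay in the HFSC range and the other two did not. Their difference from HFSC was -1.52 (95% interval -2.90 to -0.14, adjusted p 0.153), and without YFP+ replicate 3 it was called at -2.35 (adjusted p 0.0405; range 0.0324 to 0.451 over 19 alternatives). The hair follicle stem cell markers (Cd34, Lgr5, Lhx2, Sox9 and Tbx1) of YFP+ replicate 3 summed to 668, below the other YFP+ libraries (924 and 1496) and the HFSC libraries (5473 to 9029). The source of Postn in YFP+ replicate 3 was not tested. DETC libraries held 903, 682, 1012, 154 and 957, below every HFSC library (log2 difference -4.01, SE 0.58, adjusted p 1.43e-05). Against Thy1hi the DETC difference in Postn was -1.39 (adjusted p 0.0692), called without Thy1hi replicate 4 (-1.71, adjusted p 0.0408) and by DESeq2 (adjusted p 0.0285; range 0.0285 to 0.257 over 21 alternatives).

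Spp1 was the only one of the 8 transcripts to rise in DETCs against both Thy1hi cells and HFSC. Osteopontin is a secreted phosphoprotein that binds integrins and CD44 and is made by activated T cells and macrophages. DETC libraries held 86.1, 84.4, 16.6, 78.2 and 19.2 normalized counts of Spp1 (ENSMUSG00000029304, chromosome 5, 104435118 to 104441050, plus strand), in 3 high and 2 low libraries. HFSC libraries held 15.0, 11.95, 10.7 and 0, and Thy1hi libraries 5.52, 6.59, 4.06 and 0.97, all below the lowest DETC library. Spp1 rose in DETC by 3.29 ± 0.78 against Thy1hi (adjusted p 0.00215) and by 2.72 ± 0.78 against HFSC (adjusted p 0.00881), each with an exact p of 0.0159, the smallest that 5 against 4 libraries allow. Without HFSC replicate 4, the library at 0, the latter was 1.78 (adjusted p 0.0424; range 0.00137 to 0.0424 over 21 alternatives). Thy1- libraries held 17.0, 24.3, 6.31 and 4.10 and reached into the DETC range. Spp1 was lower in Thy1hi than in Thy1- in 4 of 4 same-numbered pairs, at 1 to 5 reads per Thy1hi library, and the difference was -1.28 ± 0.82.

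The 250 bases before the RefSeq start (assembly GRCm38.p6, the build of the files) are shown for Thbs2 and Postn, which moved in opposite directions between HFSC and Thy1hi cells, and for Tnc, the transcript highest in YFP+ cells. RefSeq promoters were matched for 6 of the 8 genes. Capitals mark matches, on either strand, of the letters TATAAA, known as the TATA box, or of the GC box letters GGGCGG. None of the matches overlap, and none of the windows shown lies in an exon annotated in GENCODE vM21.
Thbs2, chr17:14694263-14694512, minus strand: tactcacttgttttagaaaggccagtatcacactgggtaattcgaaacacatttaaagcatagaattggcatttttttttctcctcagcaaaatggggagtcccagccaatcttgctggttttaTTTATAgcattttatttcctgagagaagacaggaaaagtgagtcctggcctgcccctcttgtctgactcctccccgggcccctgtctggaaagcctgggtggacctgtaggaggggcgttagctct
Postn, chr3:54360857-54361106, plus strand: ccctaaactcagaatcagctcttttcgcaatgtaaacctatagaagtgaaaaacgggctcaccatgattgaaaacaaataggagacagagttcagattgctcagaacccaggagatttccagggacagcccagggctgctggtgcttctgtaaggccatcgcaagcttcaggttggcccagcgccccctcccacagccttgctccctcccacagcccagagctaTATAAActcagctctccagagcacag
Tnc, chr4:64047016-64047265, minus strand: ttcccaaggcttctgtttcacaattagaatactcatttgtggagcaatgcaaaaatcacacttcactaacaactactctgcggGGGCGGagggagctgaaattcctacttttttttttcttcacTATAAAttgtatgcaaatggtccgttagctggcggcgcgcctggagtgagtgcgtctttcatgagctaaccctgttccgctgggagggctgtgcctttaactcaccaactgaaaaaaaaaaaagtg

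The Postn window holds TATAAA 26 bases before the start, the Tnc window TATAAA at 126 and GGGCGG at 167 bases, and the Thbs2 window TTTATA, the reverse complement, at 126 bases. TATAAA occurs in 12.4% and GGGCGG in 32.7% of the 32851 promoter windows of this length in the table. The letters TGANTCA (the AP-1 motif, 6.75% of windows) and GGAATG (the TEAD motif, 12.6%) are not in these windows on either strand. The Thbs2 window had 46.8% G and C, the Tnc window 44.8% and the Postn window 52.0%, beside a median of 52.4% over all windows. Postn and Tnc each have another start in the table.

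Of 22 other matricellular genes, 12 passed the filter, from a list written with earlier results in view. In Thy1hi against HFSC, 2 of the 12 rose and 5 fell, with a median difference of -0.46 beside 0.02 over all genes tested, of which 13.4% passed in either direction. Ctgf, the CCN family member that binds integrins and growth factors, fell by 5.37 on the log2 scale (51.8 ± 23.1 against 2261 ± 1044, SD, n = 4 each; adjusted p 2.66e-06). It also fell against HFSC in Thy1- cells (-3.91, adjusted p 0.000275), in YFP+ cells (-4.62, adjusted p 4.16e-05) and in DETCs (-4.26, adjusted p 2.88e-06). Smoc1, a SPARC relative, and Fstl1, a follistatin-like member of the same family, fell in Thy1hi cells (-3.71 and -2.23). In Thy1- cells 3 of the 12 fell against HFSC (Ctgf, Fstl1 and Ecm1) and 0 rose, beside 6.08% of all genes tested in either direction. In YFP+ cells 5 fell and 0 rose against HFSC (11.6% of all genes tested), and 0 passed in either direction against Thy1hi or Thy1- cells. In DETCs 5 fell and 2 rose against Thy1hi cells (36.6% of all genes tested), among them Tgfbi, a periostin relative (-2.68, adjusted p 5.52e-06), Smoc2 (-2.62) and the CCN member Cyr61 (-2.49), and 6 fell and 1 rose against HFSC (39.7%). The gene that rose against HFSC was the tenascin gene Tnn, at 53.0 ± 18.4 in DETC (n = 5) against 2.72 ± 1.08 (n = 4; 3.82, adjusted p 2.48e-05).

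Of 24 receptors and partners of these proteins, 23 passed the filter. In Thy1hi against HFSC 5 rose and 3 fell (median 0.05 beside 0.02 over all genes tested, of which 13.4% passed). Itgb8, the integrin chain that pairs with αv and activates latent TGF-β, fell (-2.95, adjusted p 1.36e-05), and Ptprz1, a phosphatase receptor of tenascins, rose by 2.11 (317.8 ± 23.1 against 81.0 ± 38.6; adjusted p 0.00154). The reelin receptor gene Lrp8, whose product also binds thrombospondin-1, rose by 1.69 (adjusted p 0.000642). Itgb8 held 40.9 ± 23.2 normalized counts in Thy1hi libraries against 199 ± 63.8 in Thy1- libraries (SD, n = 4 each). In Thy1- against HFSC, Lrp8 rose (1.01, adjusted p 0.0491) and Cd47, encoding a thrombospondin receptor, fell (-0.77, adjusted p 0.0111), beside 6.08% of all genes tested. In YFP+ cells 5 rose and 2 fell against HFSC (11.6% of all genes tested), with Ptprz1 (2.55, adjusted p 0.000628) and Stab1, which binds SPARC (2.54, adjusted p 0.00460), rising most, and 0 passed against Thy1hi or Thy1- cells. In DETCs 4 rose and 9 fell against Thy1hi cells, beside 36.6% of all genes tested (Itgb6, Ptprz1 and Itga3 were at -2.65, -2.44 and -2.42). Against HFSC 6 rose and 10 fell, beside 39.7%, with the integrin chain gene Itgb3 up by 2.66 (adjusted p 0.000264).

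Over the 20 libraries the members that ran closest together were Thbs1 and Thbs2 (r of log2 values 0.77), followed by Postn and Thbs3 (0.70) and Postn and Sparc (0.60). Spp1 ran against Thbs2 (-0.65). The points are libraries of 5 populations, so these correlations rest largely on differences between populations. Among all genes tested, those most like Thbs1 were Adamts14 (r = 0.95), Trim47 and Ets2, and those most like Thbs2 were Lig1 (0.92), Antxr1 and Col23a1. Sparc was closest to Sdhaf4 (0.87), Arhgap22 and Myadm, and Postn to Gm37674 (0.92), Fbln1 and Wdr35. Among the genes closest to Tnc were the wound-associated keratin gene Krt6a (0.86) and the actin-bundling gene Fscn1 (0.85). Mean Krt6a was 6080.4 normalized counts in YFP+ libraries against 687 in Thy1hi and 679.8 in Thy1- libraries. Spp1 was closest to Slamf7 (0.89), Zswim6 and Havcr2, the last at a mean of 569 in DETC libraries against 29.7 to 76.5 in the other populations. Thbs3 was closest to Npas2 (0.89; 1 of the genes whose Thy1- replicate 4 value was put back in order), Dhrs3 and Adgrg6, and Sparcl1 to Gm43290 (0.82), Gm19325 and 2310043P16Rik.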

How the data were processed

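Bulk RNA-seq of 20 libraries was analysed. The authors aligned reads with STAR to mm10, counted them per gene with featureCounts and deposited a signal of DESeq2-normalized counts per gene, and no raw counts were used here (versions of STAR and featureCounts are not given in the sources used here, and 0 columns were left unused). Whole reads were recovered for at least 99.995% of values in each library (tolerance 0.1 read), and size factors ranged from 0.729 to 1.43. In 1 Thy1- library, 3212 genes stood in another row order and were put back (none of the 8 genes was among them). Over the 1132 of these that were expressed in the other Thy1- libraries, this raised the correlation with the mean of those libraries from 0.0506 to 0.934. Reads on genes (7781256 to 12982393 per library) set the counting precision, and 3 reads was taken as the floor. As Rn45s, the ribosomal RNA precursor, took 13.1% to 41.5% of reads, scaling to the same total was tried with and without it.

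Values were tested as log2(normalized count + 1) with limma 3.58.1 (trend) in R 4.3.3, in 1 fit of 5 populations, for the 17204 of 53380 genes with at least 10 in at least 3 libraries. P-values were adjusted by Benjamini-Hochberg over those genes in each comparison, with a threshold of 0.05, and all are two-sided. Exact permutation tests used scipy 1.17.1. Alternatives were edgeR 4.0.16 (quasi-likelihood) and DESeq2 1.42.0 on recovered reads, other pseudocounts, filters and scalings, 2 populations only, a replicate block and each library left out. The block fits of 2 populations and the scaling without Rn45s were added after the data were seen. Tests were checked on simulated data. Correlations of deviations from the group means were 0.293 to 0.716 over 4 same-numbered pairs of Thy1hi and Thy1-, and -0.651 to 0.514 over 12 other pairs. In DETC and HFSC they were 0.170 to 0.333 over 3 same-numbered pairs. These lay within the -0.318 to 0.371 of the 17 other pairs, so pairing is not shown there. In the other comparisons same-numbered pairs ran from -0.232 (Thy1hi and HFSC) to 0.333 (YFP+ and Thy1hi), and each comparison had such a pair below 0.1. In YFP+ and Thy1hi the 9 other pairs ran from -0.256 to 0.163. The reported fit was unpaired, and replicate numbers entered only the values within pairs and the block fits. DETC a and b are columns whose names match no single sample, and the block fits left them out.

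The 8 genes and all lists were chosen with earlier results of these data known. Genes named beside the 8 were the 3 called genes with the largest difference in a list and the 3 genes most correlated with each. Itgb8 in Thy1hi and Thy1- was given as a description. One gene that this rule names is not reported here.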

Additional observations from a re-analysis of the deposited data

Results flagged for a closer look

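Of 32 groups of 4 or 5 libraries checked for a library far from the rest, 4 held one by Dixon's criterion, which chance meets in about 1 in 20 groups. Tnc was 1659.5 normalized counts in HFSC replicate 2 and 263 to 381 in the other HFSC libraries. Thbs3 was 31.6 in Thy1hi replicate 2 and 42.0 to 43.1 in the other Thy1hi libraries. Sparcl1 was 9.11 in HFSC replicate 4 and 0 to 1.15 in the other HFSC libraries. Sparcl1 was 0.98 in DETC replicate 1 and 17.4 to 22.8 in the other DETC libraries.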

How the results depend on the processing

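Of 1099 differences in tested comparisons recomputed under another setting, 1031 kept their direction and side of the threshold, 25 lost a call, 19 gained one and 24 changed sign. The cause was not tested. Of 165 in Thy1hi against Thy1-, 2 changed sign, where Postn was -0.091 without Thy1hi 3 and Thbs3 0.0042 without Thy1hi 2. The 3 genes apart there became 4 with quantile scaling, with Spp1 lower, and leaving out 1 library kept the number at 3. Leaving out 1 library kept 3 calls in Thy1hi against HFSC and 2 in Thy1- against HFSC. The number of the 8 genes called ran from 1 to 2 in YFP+ against HFSC, 0 to 3 in YFP+ against Thy1- (0 without YFP+ 1 or YFP+ 3), 4 to 5 in DETC against Thy1hi and 4 to 7 in DETC against HFSC. It was 0 in YFP+ against HFSC with 2 populations in the fit, 1 in YFP+ against Thy1hi with DESeq2, and 3 in DETC against HFSC with a mean of at least 50. That filter took Sparcl1, Spp1 and Thbs3 out of the test. The replicate block over the 5 populations, with DETC a and b left out, called 3 genes in Thy1hi against HFSC and 2 in Thy1- against HFSC. It called 3 in YFP+ against HFSC, 3 in YFP+ against Thy1- and 0 in YFP+ against Thy1hi. In DETC it called 5 against Thy1hi and 5 against HFSC. The block fit of DETC and HFSC alone, added after the data were seen, called 8. Differences that changed sign were uncalled in the reported fit. Thbs2 in Thy1- against HFSC was 0.18 at the same total, 0.091 without Rn45s and -0.27 to 0.18 with a library left out. Spp1 there was -0.23 without HFSC 4 and up to 1.10 without HFSC 1. Sparcl1 in YFP+ against HFSC was -0.10 with DESeq2, -0.19 with edgeR and -0.20 to 0.998 with a library left out. Thbs1 in YFP+ against Thy1- was 0.0055 with DESeq2, 0.015 with edgeR and -0.25 to 0.29 with a library left out. Sparcl1 in YFP+ against Thy1hi was 0.059 with a pseudocount of 0.1 and -1.07 to 0.17 with a library left out. Spp1 there was 0.0011 with edgeR, 0.21 with quantile scaling and -0.52 to 0.47 with a library left out. Thbs1 in DETC against HFSC was -1.10 to 0.035 with a library left out. Over all genes, calls in Thy1hi against HFSC went from 2300 to 3799 with the block, and in Thy1- against HFSC from 1046 to 640 with 2 populations, 2402 with DESeq2 and 2701 with the block. Calls in YFP+ against HFSC went from 1991 to 937 with 2 populations. With 1 library left out they ran from 511 (Thy1- 1) to 1965 (Thy1- 4) in Thy1- against HFSC, from 995 (YFP+ 3) to 1922 (YFP+ 2) in YFP+ against HFSC, from 10 (YFP+ 3) to 312 (YFP+ 2) in YFP+ against Thy1- and from 0 to 4 in YFP+ against Thy1hi. In YFP+ against Thy1- 131 became 83 with 2 populations, 562 with DESeq2, 69 with no filter, 766 with the block and 56 at the same total. In YFP+ against Thy1hi 2 became 16, 113, 161 and 0 under 2 populations, DESeq2, the block and the same total, 25 with a pseudocount of 10 and 6 with quantile scaling. Scaling to the same total moved the median difference of all genes from 0.04 to 0.25 in Thy1- against HFSC, and quantile scaling moved it to -0.20 in DETC against Thy1hi and -0.15 in DETC against HFSC. Transcripts at a few reads, Sparcl1 and Spp1 outside DETCs, are limited by depth.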
